A study of Mus musculus with 4 samples.

Results

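Immediate early genes are genes whose transcription starts within minutes of a stimulus without new protein synthesis, and the enzymes and warm incubation used to take tissue apart are a well known stimulus. The 10 genes described here were chosen by symbol: Fos, Fosb, Jun, Junb, Jund, Egr1, Atf3, Nr4a1, Ier2 and Dusp1. All 10 of 10 symbols were found among the 32285 genes of the count matrices, each as 1 row. FOS and JUN proteins pair to form the transcription factor AP-1, whose genes are switched on by MAP kinase signalling through serum response factor and CREB, and DUSP1 is a phosphatase that switches those kinases off again. In freshly dissociated brain tissue these genes are commonly read as a sign of handling, although they also answer to flow, growth factors and inflammation in living vessels.

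The series asked what the loss of microglia does to brain vessels. C57BL6 mice received control diet or a diet with 1200 ppm PLX5622, an inhibitor of the receptor CSF1R that removes most microglia, for 1 month, and no genotype, sex or age is given in the labels. After ketamine and xylazine anaesthesia the brain, freed of meninges, cerebellum and olfactory bulbs, was dissociated with enzymes and by mechanical force, and CD31+ cells were sorted. Each diet has 2 droplet libraries made from 3 mice in all, so the libraries of a diet may share a mouse, and p-values below measure only the spread between libraries, which may be technical. Every library passed through dissociation and sorting, so levels set in the living brain and levels set by handling cannot be told apart in these data.

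A barcode counted as a cell from 1000 unique molecular identifiers (UMIs, each standing for 1 captured molecule) and 500 genes upward, with a mitochondrial share of 10% or less. There were 1696 and 5509 such cells on control diet and 3989 and 3670 on PLX5622 diet. The libraries held 11186648 to 38600208 UMIs, and the median cell 3834 to 5922 UMIs. Levels are given in CPM, the UMIs of a gene scaled to 1e6 UMIs of the class in that library. Cell classes were built by clustering without the 10 genes and the related lists named below, except the upstream kinases and transcription factors. Mitochondrial, interferon-response and major histocompatibility genes were also held out. The classes were named from markers, hence the ending "-like". The CD31+ sort gave mainly endothelial-like cells (1551, 5014, 3588 and 3269 per library, in the order control 1, control 2, PLX5622 1, PLX5622 2). Pericyte-like cells numbered 32, 97, 87 and 80 and smooth muscle-like cells 36, 69, 61 and 61; these are the mural cells that passed an endothelial gate. Endothelial-like cells summed 26708 to 27416 CPM over the 13 endothelial markers in the 4 libraries. The 12 microglia markers summed 23.9 to 28.9 CPM in them; the removal of microglia was not checked in these sorted cells. Pericyte-like cells did not match theirs cleanly: the endothelial gene Cldn5 stood at 4272 to 5078 CPM in them, against 7028 to 7966 CPM in endothelial-like cells and 241 to 737 CPM in smooth muscle-like cells.

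The 10 genes were among the most abundant transcripts of these cells. Together they made up 3.75% and 3.81% of all UMIs of endothelial-like cells in the control libraries and 3.44% and 3.06% in the PLX5622 libraries. The CPM of a class gives 1 value per library, from the UMIs summed over its cells; a 3′ library counts 1 molecule once whatever its length, so genes may be compared on this scale without dividing by length. Exact Poisson intervals on these sums and intervals on shares cover counting error only.

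Among the AP-1 genes Jun was the highest. Its level in endothelial-like cells was 9638 and 9220 CPM in the control libraries and 8151 and 7014 CPM in the PLX5622 libraries, which placed it 4th, 4th, 4th and 6th among all genes. Fos, the partner of JUN, followed at 6222, 6748, 5954 and 5202 CPM in the same order and ranked between 7 and 9. Both genes were lowest in the second PLX5622 library. Junb, a JUN relative that forms weaker AP-1 dimers, stood at 4730, 4763, 4584 and 4270 CPM. Jund, the most constitutive member of the JUN family, stood at 3977, 4321, 3776 and 3253 CPM. Fosb, a FOS relative with longer-lived products, had 2740, 2758, 2354 and 2113 CPM and ranked between 27 and 46. The ranges of Jun, Fos and Junb over the 4 libraries did not overlap, so that order held throughout.

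The remaining 5 genes ran from 627 to 3411 CPM. Egr1, a zinc finger factor driven by serum response factor, had 3401, 3411, 3277 and 3058 CPM, and Dusp1, the MAP kinase phosphatase, 3325, 2914, 3017 and 2714 CPM. The ranges of Junb, Jund, Egr1, Dusp1 and Fosb overlapped from each to the next, but within each of the 4 libraries the levels fell in that order. Ier2, an immediate early nuclear protein, had 1606, 1820, 1524 and 1486 CPM. Atf3, a stress-induced factor that can repress AP-1 targets, had 1055, 1400, 1060 and 875 CPM and ranked between 95 and 163. Nr4a1, an orphan nuclear receptor, was the lowest at 821, 746, 734 and 627 CPM and still ranked between 163 and 227. The ranges of Ier2, Atf3 and Nr4a1 did not overlap. Atf3 was highest in control 2 and lowest in PLX5622 2, and the 2 control libraries differed by more than control 1 did from either PLX5622 library.

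**Figure D1:**
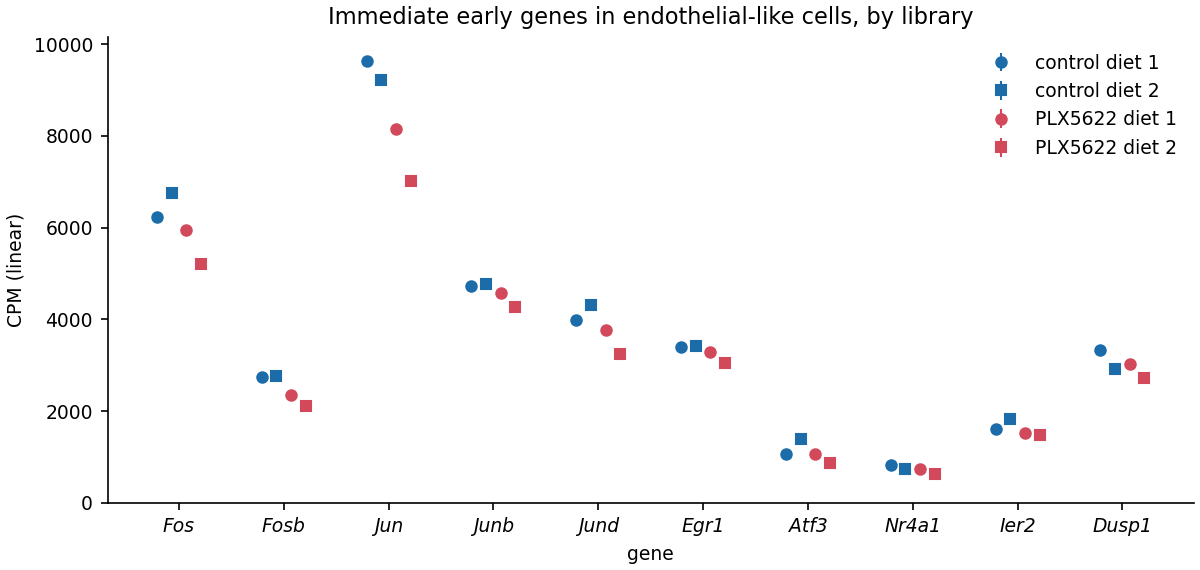
Level of each of the 10 genes (horizontal axis) in endothelial-like cells as CPM on a linear scale (vertical axis), 1 symbol per library, blue for control diet and red for PLX5622 diet. Jun lies between 7014 and 9638 CPM and Nr4a1 between 627 and 821 CPM; exact Poisson intervals are smaller than the symbols.

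Since these genes share upstream signals, the sequence before the start site is shown for 4 of them: the 2 leading AP-1 genes, Junb and the phosphatase. The windows are the 250 bases before the RefSeq start site on GRCm38.p6, each read on the gene's own strand, and 8 of the 10 genes had an entry. Capitals mark the core of the cyclic AMP response element, TGACG, or on the other strand CGTCA, and in Dusp1 also the full palindrome TGACGTCA, in which 2 cores overlap. The Fos window is chr12:85473640-85473889 on the plus strand. The windows of Jun (chr4:95052223-95052472), Junb (chr8:84978749-84978998) and Dusp1 (chr17:26508473-26508722) are on the minus strand.
Fos: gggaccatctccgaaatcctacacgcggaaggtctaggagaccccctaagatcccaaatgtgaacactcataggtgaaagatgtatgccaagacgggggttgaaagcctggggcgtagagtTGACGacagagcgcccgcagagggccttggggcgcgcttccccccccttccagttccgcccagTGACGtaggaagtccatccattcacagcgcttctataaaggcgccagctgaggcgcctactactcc
Jun: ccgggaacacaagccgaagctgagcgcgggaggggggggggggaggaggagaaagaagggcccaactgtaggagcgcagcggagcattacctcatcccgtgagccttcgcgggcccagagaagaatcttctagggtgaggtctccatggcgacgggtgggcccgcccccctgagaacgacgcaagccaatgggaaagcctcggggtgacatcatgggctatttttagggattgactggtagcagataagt
Junb: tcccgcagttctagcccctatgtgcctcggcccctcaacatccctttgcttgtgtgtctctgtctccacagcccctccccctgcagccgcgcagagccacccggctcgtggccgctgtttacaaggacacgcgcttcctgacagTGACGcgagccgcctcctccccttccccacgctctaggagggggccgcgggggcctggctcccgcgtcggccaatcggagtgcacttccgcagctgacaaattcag
Dusp1: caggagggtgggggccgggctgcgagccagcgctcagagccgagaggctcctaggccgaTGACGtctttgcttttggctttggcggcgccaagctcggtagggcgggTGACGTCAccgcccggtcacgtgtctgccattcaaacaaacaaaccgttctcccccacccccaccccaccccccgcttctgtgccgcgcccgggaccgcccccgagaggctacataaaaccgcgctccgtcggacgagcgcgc

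The core TGACG was present on either strand in 6 of the 8 windows, those of Fos, Fosb, Junb, Atf3, Nr4a1 and Dusp1, against 17.8% of 32851 windows of the same length. In Fos the core nearest the start site lay 66 to 62 bases before it, between the far core and a TATAAA sequence 33 to 28 bases before it. The full element TGACGTCA was found in the Dusp1 window alone of the 8, against 1.55% of all windows. The AP-1 site TGACTCA was found in 0 of the 8 windows and in 4.46% of all, and the CArG box, the site of serum response factor, in 0 of 8 and 1.47% of all. TATAAA occurred in the Fos window alone of the 8 and in 12.4% of all. A match is a description of letters in this window.

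Within a library the genes varied together from cell to cell. After each cell was thinned to 1000 UMIs, 98.6% to 99.1% of endothelial-like cells had a UMI of at least 1 of the 10 genes and at least 85.2% had UMIs of 5 or more. Jun was seen in 92.2% to 94.4% of thinned cells and Nr4a1 in 35.8% to 43.4%; with all UMIs of each cell the ranges were 96.6% to 97.9% and 69.7% to 77.6%. Over cells the closest pair was Fos and Junb, with a Pearson r of 0.741 to 0.802 between their log levels in the 4 libraries, and the loosest pair on average was Jund and Nr4a1, at 0.309 to 0.385. All 45 pairs were positive. These correlations describe cells that share library and depth, and carry no test.

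Endothelial-like cells differed widely in the summed level of the 10 genes. The 10th percentile of cells lay at 9086, 8765, 7103 and 5285 CPM and the 90th percentile at 61750, 61544, 55896 and 50810 CPM, a spread of 6.80-fold to 9.61-fold within a library. The summed level was higher in cells with more UMIs (r of 0.308 to 0.400 with log2 UMIs) and lower in cells with a larger mitochondrial share (r of -0.516 to -0.570). Among cells of 1000 to 2000 UMIs it was 25355, 16242, 22954 and 9780 CPM, and among cells of at least 8000 UMIs 38523, 39622, 36635 and 31634 CPM. Correlation with the summed heat shock genes of the list below was weak, at 0.181 to 0.314. The part of depth and of the mitochondrial share in the level of the 10 genes was not tested.

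Barcodes with fewer than 100 UMIs, which hold free RNA in place of a cell, carried the 10 genes at nearly the endothelial level: 37997, 33503, 33259 and 28188 CPM, or 1.01, 0.879, 0.966 and 0.921 of it. Jun was lower in this free RNA (0.750 to 0.823 of its endothelial level) and Nr4a1 was higher (1.31 to 1.48). Free RNA of this makeup can place UMIs of these genes in any droplet. The astrocyte-like droplets, 13 to 48 per library with a median of 2540 to 8275 UMIs, had the lowest summed level of the classes, 5065 to 11774 CPM. A Jun UMI was found in 35.7% to 46.2% of them after thinning, and no class is known to lack these genes.

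Along the vessel tree the summed level was highest at the venous end of control libraries. Venous-like cells had 41132 and 41271 CPM in the control libraries and 36603 and 31457 CPM in the PLX5622 libraries. Arterial-like cells had 37642 and 36186 CPM in the control libraries and 30573 and 29441 CPM in the PLX5622 libraries. Each library was higher in its venous-like than in its arterial-like cells. Venous-side capillary-like cells lay close to the venous-like ones at 40230, 39785, 37155 and 31109 CPM, and arterial-side capillary-like cells close to the arterial-like ones at 35278, 36839, 32278 and 30907 CPM.

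**Figure D2:**
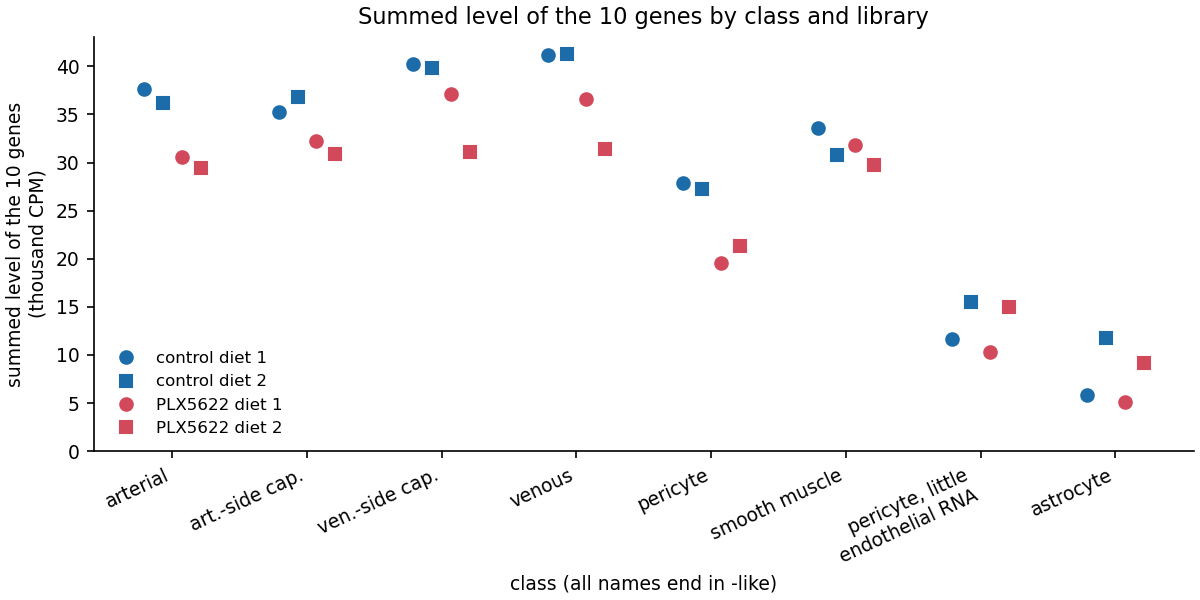
Summed level of the 10 genes in CPM divided by 1000 (vertical axis, linear) by class (horizontal axis), 1 symbol per library, blue for control diet and red for PLX5622 diet. Pericyte-like cells with little endothelial RNA (10352 to 15530 CPM) and astrocyte-like droplets lie below all endothelial zones.

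The 10 genes did not move as a block between zones. In the comparison of venous-like with arterial-like cells, fitted over the 4 zones with the library as a block, 5 of the 10 were higher and 2 lower at an adjusted p under 0.05 (edgeR's quasi-likelihood test with Benjamini-Hochberg adjustment over 10935 genes). Of all genes tested 15.5% were called higher and 16.1% lower, and the difference between these shares and those of the 10 was not tested. Their median log2 difference was 0.08, against 0.01 over all genes tested.

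Jun was the AP-1 gene most clearly higher on the venous side. It rose from 7818, 7166, 5581 and 5513 CPM in arterial-like cells to 11598, 10773, 9203 and 7697 CPM in venous-like cells. Within each library the venous-like value was the higher, and the log2 difference was 0.57 ± 0.04 (SE, n = 4 libraries; edgeR's quasi-likelihood test, adjusted p = 1.09e-18), or 1.48-fold. Jund, from 3577, 3539, 2957 and 2684 to 4609, 4893, 4134 and 3588 CPM, differed by 0.42 ± 0.04 (adjusted p = 3.34e-17), and Fosb by 0.42 ± 0.05 (adjusted p = 2.00e-07). Junb (0.10 ± 0.04) and Ier2 (0.17 ± 0.04) were higher by small amounts.

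Fos went the other way from Jun. Its level was 7679, 7835, 6667 and 6212 CPM in arterial-like cells and 5464, 6114, 5636 and 4580 CPM in venous-like cells. Each library was lower in its venous-like cells, with a log2 difference of -0.40 ± 0.04 (adjusted p = 5.55e-17 by edgeR's quasi-likelihood test). Nr4a1 had the steepest slope, from 1148, 946, 836 and 843 CPM to 666, 629, 625 and 446 CPM, a log2 difference of -0.70 ± 0.07 (adjusted p = 5.81e-07). So 2 genes were lower in venous-like cells while their family or pathway partners Fosb, Jun and Jund were higher. Egr1 (0.05 ± 0.04), Atf3 (0.01 ± 0.05) and Dusp1 (0.05 ± 0.04) did not pass the test between the 2 ends.

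**Figure D3:**
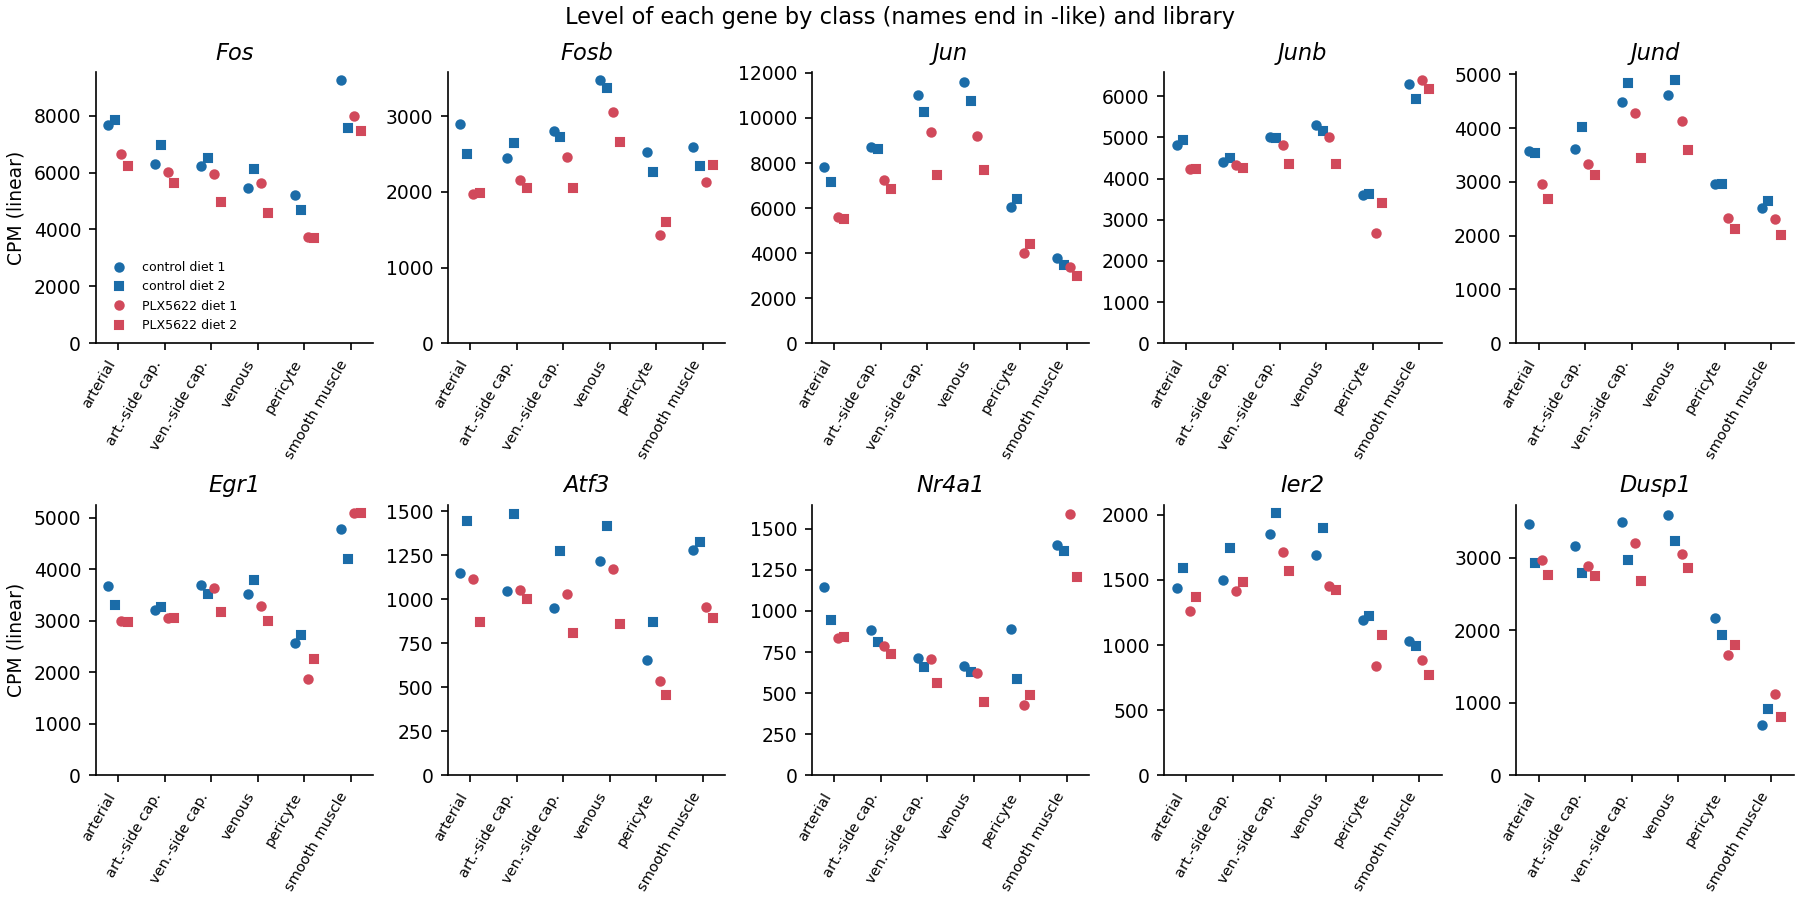
Level of each gene as CPM on a linear scale (vertical axes, each from 0) in 4 endothelial zones, pericyte-like and smooth muscle-like cells (horizontal axes), 1 symbol per library. Jun and Jund are higher in venous-like than in arterial-like cells in every library, Fos and Nr4a1 are lower, and in smooth muscle-like cells Fos, Junb, Egr1 and Nr4a1 stand high while Jun and Dusp1 stand low.

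From zone to neighbouring zone the genes took different courses. From arterial-like to arterial-side capillary-like cells Jun (0.26 ± 0.04) and Jund (0.13 ± 0.04) were higher and Fos (-0.20 ± 0.04) and Nr4a1 (-0.24 ± 0.07) lower, 2 of 10 in each direction, with 8.70% of all genes called higher and 11.1% lower. From arterial-side to venous-side capillary-like cells 7 of 10 were higher, led by Jun (0.31 ± 0.04) and Jund (0.30 ± 0.04), with Ier2 at 0.25 ± 0.04, Egr1 at 0.19 ± 0.04, Junb at 0.16 ± 0.04, Fosb at 0.14 ± 0.05 and Dusp1 at 0.12 ± 0.04. Nr4a1 (-0.25 ± 0.06) and Atf3 (-0.15 ± 0.05) were lower and Fos did not pass, where 9.66% of all genes were called higher and 9.90% lower. From venous-side capillary-like to venous-like cells Fosb (0.29 ± 0.05) and Atf3 (0.16 ± 0.05) were higher and Fos (-0.15 ± 0.04) and Ier2 (-0.18 ± 0.04) lower, against 8.75% and 8.36% of all genes. Jun (0.01 ± 0.04) and Jund (-0.02 ± 0.04) did not pass in this last step.

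Over wider steps Jun and Jund were again higher and Fos and Nr4a1 lower toward the venous end. Venous-side capillary-like against arterial-like cells gave 5 of 10 higher and 3 lower (14.9% and 16.0% of all genes), with Jun at 0.56 ± 0.04, Jund at 0.43 ± 0.04, Ier2 at 0.35 ± 0.04, Egr1 at 0.13 ± 0.04, Junb at 0.09 ± 0.04, Atf3 at -0.15 ± 0.05, Fos at -0.25 ± 0.04 and Nr4a1 at -0.50 ± 0.07. Fosb (0.12 ± 0.05) and Dusp1 (0.04 ± 0.04) did not pass. Venous-like against arterial-side capillary-like cells gave 6 higher and 2 lower (12.2% and 10.9%), with Fosb at 0.43 ± 0.05, Jun at 0.31 ± 0.04, Jund at 0.28 ± 0.04, Junb at 0.17 ± 0.04, Dusp1 at 0.13 ± 0.04, Egr1 at 0.11 ± 0.04, Fos at -0.20 ± 0.04 and Nr4a1 at -0.45 ± 0.07. Ier2 (0.07 ± 0.04) and Atf3 (0.01 ± 0.05) did not pass. These contrasts share zones and are not independent of each other. With library totals in place of normalization factors the calls over all genes shifted from 1056 higher and 1083 lower to 828 and 1286 between the capillary zones, and from 957 and 914 to 1180 and 668 between venous-like and venous-side capillary-like cells.

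The zone calls depend in part on how zones were drawn. When no gene was held out of the clustering, the 10 genes could take part in forming the zones. Then 7 of 10 were called between arterial-like and arterial-side capillary-like cells. Between the capillary zones 5 of 10 were called. Fos in the first contrast then stood at 0.02, and Junb and Ier2 in the second at -0.09 and -0.09. That clustering also took in the mitochondrial, interferon-response and major histocompatibility genes. Leaving out control 2 left 2 of 10 called between arterial-like and arterial-side capillary-like cells. Zones drawn from marker levels alone, tried after the data were seen, left 4 of 10 called between the capillary zones and 4 of 10 between venous-like and arterial-side capillary-like cells. The shares of all genes called in these alternative fits are not given, so the counts have no background beside them. Mitochondrial transcripts moved with the zones: 7 of 9 RNA quality genes tested were higher in venous-like than arterial-like cells, where 15.5% of all genes were. Of the 9, mt-Nd1 was higher by 0.38 ± 0.04, and Malat1 was lower, by -0.30 ± 0.03. The part of RNA quality in the zone differences was not tested.

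**Figure D4:**
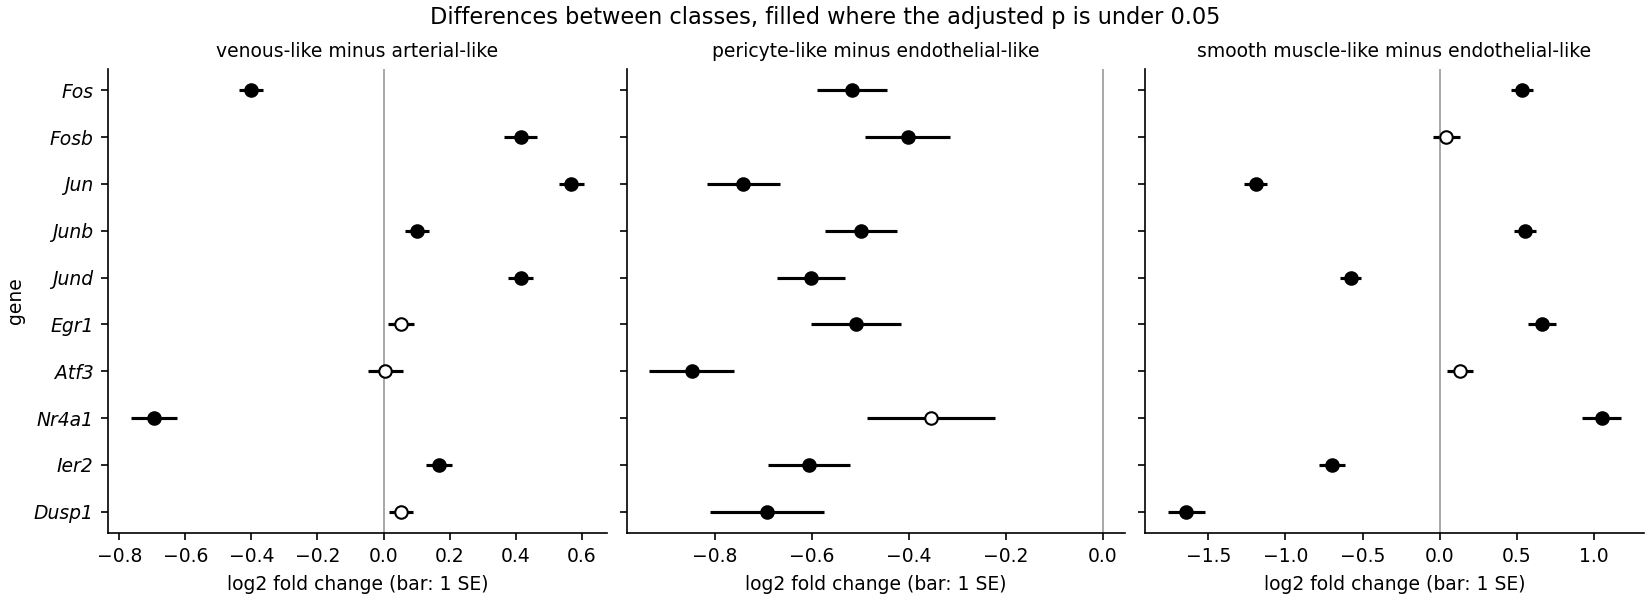
Log2 difference of each gene (vertical axis) between classes (horizontal axes) with 1 SE, filled where the adjusted p is under 0.05; the scales of the 3 panels differ. Venous-like minus arterial-like cells range from -0.70 for Nr4a1 to 0.57 for Jun, pericyte-like minus endothelial-like values are all negative, and smooth muscle-like minus endothelial-like values run from -1.64 for Dusp1 to 1.05 for Nr4a1.

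Some endothelial-like clusters lay far from the rest, although the 10 genes and the other genes held out took no part in forming them. Clusters share cells and libraries with the zones, and no test is given. Cluster 6, venous-side capillary-like with Osgin1 and Slc16a1 among its leading genes, was the highest at 48703, 53691, 47188 and 47216 CPM. In it Jun reached 13542, 14378, 12396 and 12051 CPM and Egr1 4741, 5152, 4774 and 4792 CPM. The 4 libraries lay within 1.14-fold of each other. The other venous-side clusters, 0 and 3, had 34333, 38383, 34327 and 29137 CPM and 32715, 34413, 32804 and 29401 CPM.

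The clusters that make up the venous-side capillary zone were unequally shared between libraries. Clusters 0, 3 and 6 held 170, 78 and 195 cells in control 1, 1058, 254 and 267 in control 2, 689, 361 and 388 in PLX5622 1 and 519, 676 and 163 in PLX5622 2. Cluster 6 was thus the largest of the 3 in control 1 and the smallest in PLX5622 2, the library with the lowest level of the 10 genes in this zone. The part of this makeup in the zone's values was not tested.

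At the low end was cluster 8, arterial-side capillary-like with a median of 2522 UMIs, at 19326, 11007, 13922 and 10935 CPM. Fos in it was 3127, 1335, 2019 and 952 CPM and Dusp1 2132, 1297, 1678 and 1422 CPM. Cluster 9, which matched no zone and had a median of 1631 UMIs, held 11732, 15928, 23824 and 12541 CPM, and its libraries differed 2.03-fold. Both low clusters had fewer UMIs per cell than every other endothelial-like cluster, whose medians ran from 3958 to 9089 UMIs.

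**Figure D5:**
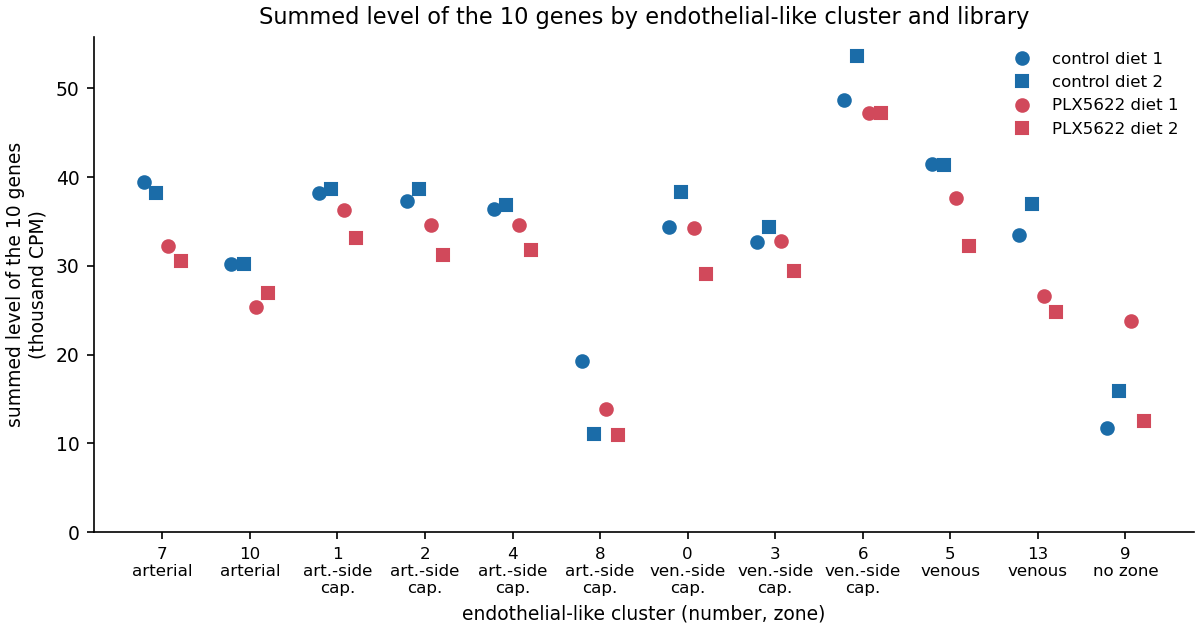
Summed level of the 10 genes in CPM divided by 1000 (vertical axis, linear) in the endothelial-like clusters, ordered by zone (horizontal axis), 1 symbol per library, blue for control diet and red for PLX5622 diet. Cluster 6 lies highest in all 4 libraries (47188 to 53691 CPM) and clusters 8 and 9 lie lowest.

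Pericyte-like cells had less of the 10 genes than endothelial-like cells. Their summed level was 27830 and 27274 CPM in the control libraries and 19530 and 21325 CPM in the PLX5622 libraries, below the endothelial-like value of every library. Of the 10 genes 9 were lower and 0 higher (edgeR's quasi-likelihood test with the library as a block, adjusted p under 0.05 over 8178 genes), while 9.89% of all genes were called lower and 13.8% higher. The median log2 difference was -0.56, against 0.00 over all genes tested. Atf3 (-0.85 ± 0.09), Jun (-0.74 ± 0.08) and Dusp1 (-0.69 ± 0.12) were farthest down, and Nr4a1 (-0.35 ± 0.13, adjusted p = 0.0705 by the same edgeR test) did not pass.

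The pericyte-like class also held endothelial RNA, whose part in these values was not tested. In the pericyte-like clusters where Cldn5 lay under 10% of its endothelial level (8, 32, 40 and 27 cells) the summed level was 11647, 15530, 10352 and 15001 CPM, below the whole class in every library. With this narrower class, chosen after the data were seen, 10 of 10 genes were lower than in endothelial-like cells in a fit over all 4 libraries, control 1 with its 8 cells among them, where 1555 of 7007 genes were called lower. Jun then stood at 2378, 3169, 1533 and 1578 CPM, a log2 difference of -2.22 ± 0.17, and Dusp1 at 525, 732, 432 and 938 CPM (-2.34 ± 0.19). Fos, at 1784, 2646, 1652 and 3822 CPM, differed by -1.49 ± 0.20. The clusters of this narrower class had medians of 2706 and 5629 UMIs, and endothelial-like cells 3754.5 to 5762 UMIs by library. The mitochondrial share of the whole pericyte-like class was 3.67% to 4.33%, against 3.05% to 3.51% in endothelial-like cells. The part of depth and of the mitochondrial share in these differences was not tested.

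Smooth muscle-like cells had another mix of the same genes. Their summed level, 33625, 30775, 31870 and 29763 CPM, lay below that of endothelial-like cells in each library, but 4 of the 10 genes were higher and 4 lower, against 29.1% and 28.9% of all genes called higher and lower in this contrast. Nr4a1 was higher by 1.05 ± 0.13 on the log2 scale, with 1403, 1366, 1589 and 1208 CPM against 821, 746, 734 and 627 CPM in endothelial-like cells. Each of the 4 smooth muscle-like values exceeded each endothelial-like one. Egr1 (4780, 4198, 5085 and 5097 CPM) was higher by 0.66 ± 0.09, Junb (6307, 5924, 6398 and 6184 CPM) by 0.55 ± 0.07 and Fos (9246, 7579, 7991 and 7455 CPM) by 0.54 ± 0.07.

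The genes on the low side in smooth muscle-like cells were led by the phosphatase. Dusp1 had 694, 918, 1122 and 799 CPM, with a log2 difference of -1.64 ± 0.12 (adjusted p = 1.04e-08, edgeR's quasi-likelihood test). Jun had 3777, 3491, 3402 and 2984 CPM (-1.19 ± 0.08), so that Fos and Junb, not Jun, were the leading AP-1 genes there. Ier2 (-0.70 ± 0.08) and Jund (-0.58 ± 0.07) were lower, and Fosb (0.04 ± 0.09) and Atf3 (0.13 ± 0.08) did not pass. Smooth muscle-like cells had little endothelial RNA, and those directions were the same in the clusters with the least Cldn5 (Dusp1 -1.89 ± 0.16, Jun -1.32 ± 0.16, Fos 0.51 ± 0.18). Their mitochondrial share was larger, 5.77% to 6.57% against 3.05% to 3.51% in endothelial-like cells, and its part was not tested.

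Between the 2 mural classes 6 of 10 genes were higher in smooth muscle-like cells and 2 lower, where 19.4% of all genes were called higher and 22.9% lower. Nr4a1 (1.40 ± 0.14), Egr1 (1.17 ± 0.09), Fos (1.05 ± 0.07), Junb (1.05 ± 0.08), Atf3 (0.98 ± 0.09) and Fosb (0.45 ± 0.09) were the higher ones. The 2 lower ones, Dusp1 (-0.95 ± 0.12) and Jun (-0.45 ± 0.08), had the opposite sign when both classes were held to cells with little endothelial RNA. Jun was then higher, by 0.90 ± 0.17 (adjusted p = 1.24e-05, edgeR's quasi-likelihood test), while Dusp1, at 0.45 ± 0.19 (adjusted p = 0.0846), did not pass. Only 8 pericyte-like cells of control 1 entered that fit. The pericyte-like clusters in it had medians of 2706 and 5629 UMIs and the smooth muscle-like ones 7459 to 10265 UMIs, and the part of depth was not tested. Library totals in place of normalization factors put the median of all genes at -0.13 between smooth muscle-like and endothelial-like cells (-0.02 with the factors) and at -0.21 between the mural classes (-0.07 with them), and changed calls over all genes in the latter from 1585 higher and 1874 lower to 1277 and 2307. Every called gene of the 10 kept its direction under these totals, and 9 of 10 were then called between the mural classes.

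The diet comparison asks whether the 10 genes differed between mice fed PLX5622 and their controls. In endothelial-like cells 0 of the 10 genes passed the test (edgeR's quasi-likelihood test on the 4 library sums, adjusted p under 0.05 over 12757 genes), with 1.05% of all genes called. An unadjusted p under 0.05 was reached by 0 of the 10, and the share of all genes that reached it is not given. DESeq2 and limma-voom each called 0 of the 10. The median log2 difference of the 10, PLX5622 minus control diet, was -0.16, against 0.00 over all genes tested. Atf3 had -0.31 ± 0.16 (adjusted p = 0.536), Jun -0.27 ± 0.17 (adjusted p = 0.644) and Fosb -0.25 ± 0.15 (adjusted p = 0.585). The other 7 lay between -0.20 and -0.06. The control libraries had 9638 and 9220 CPM of Jun and the PLX5622 libraries 8151 and 7014 CPM, so the diets did not overlap, but the gap between the 2 PLX5622 libraries was as wide as that between the nearest libraries of the 2 diets.

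The count of genes without overlap depended on the scaling. By CPM, 8 of the 10 genes were lower in both PLX5622 libraries than in both controls in endothelial-like cells, where 25.5% of all genes tested were. On totals scaled with normalization factors the number was 3 of 10, against 20.2% of all genes; control 1 had a factor of 1.05 and the other libraries 0.984 each. The second PLX5622 library was lower than the first for 10 of 10 genes, with a median log2 difference of -0.18 between them, against a median absolute difference of 0.12 over all genes. The 2 control libraries differed by a median of 0.10, and all genes by 0.16. Over the 275 most abundant of these genes the median absolute difference was 0.0918 between the PLX5622 libraries and 0.212 between the controls.

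None of the 10 was called in arterial-like (0.433% of genes called), arterial-side capillary-like (0.679%), venous-side capillary-like (0.784%) or venous-like cells (1.13%), by edgeR, DESeq2 or limma-voom, and the members' medians were -0.27, -0.14, -0.21 and -0.23. An unadjusted p under 0.05 was reached by 5, 0, 0 and 3 of the 10 in the edgeR test, and over all genes by between 626 of 9466 in arterial-like and 976 of 11355 in venous-side capillary-like cells. By CPM 9, 8, 6 and 9 of the 10 were lower in both PLX5622 libraries, against 18.5%, 24.7%, 20.3% and 22.5% of all genes, and with normalization factors 8, 4, 3 and 8, against 17.7%, 19.9%, 18.4% and 19.1%. Over the 10 genes the log2 differences ran from -0.43 to -0.14 in arterial-like, -0.27 to -0.01 in arterial-side capillary-like, -0.31 to -0.06 in venous-side capillary-like and -0.37 to -0.12 in venous-like cells. In arterial-like cells Fosb (2894, 2506, 1970 and 1989 CPM) had -0.43 ± 0.14 and Jun -0.42 ± 0.15 (adjusted p = 0.302 and 0.342 by edgeR's quasi-likelihood test). In the same cells the pericyte gene Rgs5 stood at 118, 141, 335 and 330 CPM, and the nuclear RNA Neat1, at 534, 380, 295 and 303 CPM, was called lower (-0.57 ± 0.14), 1 of 9 RNA quality genes tested there; their part in the values of the 10 was not tested. The zone by diet interaction in edgeR's quasi-likelihood test called 0 of the 10 genes and 0.960% of all genes. The smallest adjusted p among the 10 was 0.542, for Junb. Of the 10, 2 had an unadjusted p under 0.05, and the share of all genes that had one is not given.

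Leaving out 1 library changed these calls, in fits where 1 diet then has a single library, which is assumed to vary like the libraries of the other diet. Without control 1, Atf3 was called lower in endothelial-like cells and in all 4 zones, with log2 differences of -0.54 in endothelial-like cells and -0.49 to -0.56 in the zones. The same omission added Jun (-0.38), Fosb (-0.35) and Jund (-0.34) in arterial-like cells and Ier2 (-0.40) in venous-like cells, and without control 2 Jun (-0.45), Fosb (-0.50) and Nr4a1 (-0.41) were called in arterial-like cells. Without control 1 the calls over all genes were 162 of 13268 in endothelial-like and 89 of 10302, 261 of 11555, 266 of 11814 and 177 of 10733 in the zones from arterial-like to venous-like, and without control 2 they were 101 of 9264 in arterial-like cells. Control 1 had the fewest UMIs, 11186648, and the fewest cells, 1696. Its median cell held 5184 UMIs, against 3834 in PLX5622 1.

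In pericyte-like cells 0 of the 10 genes passed and 0% of 6706 genes were called (404 had an unadjusted p under 0.05, 7 of the 10 among them, and DESeq2 called 0 of the 10). The members lay lowest here, with a median of -0.37 against 0.00 over all genes tested. Jun had 6064 and 6413 CPM in the control libraries and 4021 and 4427 CPM in the PLX5622 libraries (-0.52 ± 0.10, adjusted p = 0.110), and Fosb had 2522 and 2264 CPM and then 1434 and 1603 CPM (-0.61 ± 0.12, adjusted p = 0.110, both by edgeR's quasi-likelihood test). Nr4a1 (893, 584, 426 and 487 CPM) had -0.63 ± 0.17, Atf3 -0.60 ± 0.16 and Fos -0.37 ± 0.10. All 10 genes were lower in both PLX5622 libraries, by CPM, against 20.6% of all genes, and with normalization factors, against 17.9%. Jun and Fosb were called with limma-voom, with library totals and with cells of at least 2000 UMIs, where 2, 2 and 3 of all genes were called. In fits with 1 library left out, and so a single library in 1 diet, 1 to 3 of the 10 and 12 to 44 of all genes were called: Jun and Atf3 without control 1, Jun, Fosb and Nr4a1 without control 2 or without PLX5622 2, and Atf3 alone without PLX5622 1.

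The makeup and depth of the pericyte-like class differed between libraries, mainly in PLX5622 1. Cldn5 was 5061, 4962, 4272 and 5078 CPM in them, the pericyte gene Rgs5 4684, 4491, 6357 and 4559 CPM, and the median cell had 6467, 6179, 2927 and 6354 UMIs. The summed level of the whole class lay below both controls in both PLX5622 libraries. The part of makeup and depth in the diet values was not tested. In the pericyte-like cells with little endothelial RNA the summed level was 11647 and 15530 CPM in the control libraries and 10352 and 15001 CPM in the PLX5622 libraries, so there the diets overlapped in the sum. Fosb (1994, 2115, 853 and 730 CPM), Jun and Jund (1994, 1721, 1436 and 1659 CPM) were lower in both PLX5622 libraries there. Atf3 (175, 40.2, 248 and 361 CPM) and Ier2 (280, 290, 313 and 505 CPM) were higher in both, and the other 5 overlapped. The share of all genes without overlap is not given for this class, so nothing about the 10 is read from these orders. That class has 8 cells in control 1, with 333 UMIs of the 10 genes together, and its diets were given no test.

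In smooth muscle-like cells 0 of the 10 genes passed and 0% of 6397 genes were called (297 had an unadjusted p under 0.05, 1 of the 10 among them, and DESeq2 and limma-voom called 0 of the 10). The members' median was -0.09, against 0.00 over all genes, and without control 1 it was 0.02. Atf3 had 1277 and 1322 CPM in the control libraries and 955 and 895 CPM in the PLX5622 libraries (-0.46 ± 0.15, adjusted p = 0.893 by edgeR's quasi-likelihood test). Egr1, with 4780 and 4198 CPM and then 5085 and 5097 CPM, had 0.22 ± 0.15, and Dusp1 0.27 ± 0.18. By CPM 4 of 10 were lower in both PLX5622 libraries (18.9% of all genes) and Egr1 higher (14.7%). With normalization factors 4 were lower (15.6% of all genes) and 2 higher, Junb and Egr1 (17.3%). Without control 1, which leaves a single control library, Atf3 (-0.48) and Egr1 (0.31) were called among 94 of 7510 genes. The class by diet interaction over endothelial-like, pericyte-like and smooth muscle-like cells called 0 of 10 genes and 0.0122% of all genes in edgeR. Of the 10, 4 had an unadjusted p under 0.05, and the share of all genes that had one is not given.

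Lists of related genes were fitted in the same tests. Of 11 other AP-1 family genes tested in endothelial-like cells 0 differed by diet, and of 17 upstream kinases and transcription factors 0 (median of the AP-1 genes 0.07). Of 44 other immediate early genes 1 was called, Cebpd, an acute phase transcription factor: it had 93.6 and 104 CPM in the control libraries and 188 and 196 CPM in the PLX5622 libraries, a rise of 1.00 ± 0.10 (adjusted p = 3.39e-05, edgeR's quasi-likelihood test). The list's median was -0.04, and the other 43 did not pass. Of 13 MAP kinase phosphatases and feedback inhibitors Spry4, a brake on receptor tyrosine kinase signalling, was higher (9.18, 10.0, 16.1 and 17.8 CPM; 0.84 ± 0.14). In both capillary zones Ccn2, a matricellular target of YAP, was higher too, by 1.02 ± 0.14 on the arterial side and 0.70 ± 0.14 on the venous side. Ccn2 is among the leading genes of venous-side cluster 3, which held 78 of 443 and 254 of 1579 cells of that zone in the controls and 361 of 1438 and 676 of 1358 on PLX5622 diet; the part of this makeup was not tested.

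Heat shock genes, another common mark of dissociation, had a median on the other side of 0. In endothelial-like cells 3 of 14 were called higher and 0 lower on PLX5622 diet, where 1.05% of all genes were called in either direction. They were the mitochondrial co-chaperone Hspe1 (75.7, 87.3, 123 and 116 CPM, 0.59 ± 0.10), Dnaja1 (355, 367, 582 and 467 CPM, 0.58 ± 0.13) and Hspa1b (37.4, 39.2, 58.0 and 47.4 CPM, 0.49 ± 0.11). The list's median was 0.35. Its summed level was 5116, 5851, 7498 and 6021 CPM, with the first PLX5622 library the highest. The difference between the 2 lists was not tested. In venous-side capillary-like and arterial-like cells Hsph1, a co-chaperone, was higher by 1.22 ± 0.21 and 1.23 ± 0.27. Of 10 RNA quality genes 0 were called in endothelial-like cells, and the mitochondrial share was 3.05%, 3.34%, 3.31% and 3.51%.

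Between zones the related lists also held genes of both directions. Of the other immediate early genes tested 18 of 43 were higher and 18 lower in venous-like than in arterial-like cells. That contrast called 15.5% of all genes higher and 16.1% lower. Nr4a3, a sister of Nr4a1, was lower by -1.79 ± 0.20, Egr3, a sister of Egr1, by -1.36 ± 0.08 and Trib1 by -1.49 ± 0.10, while Nfkbiz (1.07 ± 0.06), Zfp36l2 (0.77 ± 0.07) and Ier3 (0.73 ± 0.06) were higher. Among other AP-1 genes 4 of 11 were lower, led by Jdp2 (-1.38 ± 0.17) and Fosl2 (-0.97 ± 0.08), and 2 higher, Maff (0.35 ± 0.07) and Atf4 (0.12 ± 0.05). Of 11 phosphatases and feedback inhibitors 5 were lower, with Spry4 at -4.21 ± 0.26 and Dusp2 at -1.52 ± 0.15, and 2 higher, among them Dusp6 (0.35 ± 0.06). In smooth muscle-like against endothelial-like cells 16 of 43 other immediate early genes were higher and 19 lower, against 29.1% and 28.9% of all genes. Cebpb stood at 4.30 ± 0.14, Nr4a3 at 2.69 ± 0.17 and Klf2 at -2.26 ± 0.08. Of the phosphatases Dusp6 was lower there (-2.99 ± 0.15), as Dusp1 was. In pericyte-like cells 23 of 43 other immediate early genes were lower than in endothelial-like cells and 2 higher, against 9.89% and 13.8% of all genes. The 2 higher ones were Cebpb (1.18 ± 0.16) and Errfi1 (0.96 ± 0.24).

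The genes whose level followed the summed 10 most closely were found over the 24 sums of 4 zones and 2 mural classes in 4 libraries, among 6544 genes with a mean of at least 20 CPM. Zfp36, which encodes a protein that destabilises AU-rich messenger RNAs and is itself an immediate early gene, had the highest Pearson r, 0.946, and ranged from 919 to 2526 CPM. Tra2b, a splicing regulator, followed at 0.864 and Cdkn1a, the cell cycle inhibitor p21, at 0.837, and then Chkb, Cfl1, Sertad1, Mfhas1 and Cdk11b at 0.768 to 0.776. Only Zfp36 of the 8 belongs to a related list used here. Over the 16 zone sums alone Zfp36 had 0.818 and Tra2b 0.824, while Cfl1 dropped to 0.204, so its likeness rests on the mural sums. These sums share libraries and depth, and the correlations are descriptions.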

How the data were processed

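Droplet 3′ libraries of CD31+ sorted mouse brain cells were counted by the submitters with Cell Ranger 6.0.1, and Seurat 4.0 and the builds mm10 and mm39 are also named, per the submitters' processing notes; the file headers name Cell Ranger 4, so version and build are not settled. The deposited values are raw UMI counts per gene and barcode, made by the authors, with no normalization. The 10 genes, the related lists and the alternatives were chosen with earlier results of these data known. The rule names every one of the 10 in every comparison, and where none was called some are given only by their range; of each other list, up to 5 genes per direction past the threshold. The 4 libraries shared 1 to 6 barcodes of kept cells per pair.

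Cells were clustered (Leiden in igraph 0.11.9) without the members and the other genes held out, as given above. Scrublet (scanpy 1.11.5) marked 4 of 14864 cells (0.0269%), which was taken as a failed call, and no doublets were removed. UMIs were summed per library and class, filtered by edgeR's default, scaled by TMM and tested with edgeR 4.0.16 (quasi-likelihood, robust, Benjamini-Hochberg over all genes tested, two-sided, 0.05), the library being a block between classes. Diet tests needed at least 20 cells per library. The tests were tried on simulated data. DESeq2 1.42.0, limma 3.58.1 (voom), other factors, filters, cell cut-offs, thinning, clusterings and each library left out were alternatives. Promoter windows come from RefSeq on GRCm38.p6; no coordinate of the files was used. Replicate numbers do not pair the libraries (correlations of -0.03 to 0.08).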

Additional observations from a re-analysis of the deposited data

How the results depend on the processing

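The count of the 10 genes called between diets, 0 in each class, ranged with a library left out, which leaves 1 diet with a single library assumed to vary like the others, from 0 to 1 in endothelial-like, arterial-side and venous-side capillary-like cells, 0 to 4 in arterial-like, 0 to 2 in venous-like and smooth muscle-like and 1 to 3 in pericyte-like cells. In pericyte-like cells it was 2 with limma-voom, with library totals, with at least 2000 UMIs per cell and with a replicate block, and in venous-like cells 1 with the replicate block (Atf3). The block changed no other diet call of the 10, and the number of all genes called in the block fits is not given. Between arterial-side capillary-like and arterial-like cells 2 to 4 were called with a library left out and 7 with no gene held out of the clustering. Between the capillary zones 5 were called with none held out and 4 with zones from markers. Between venous-like and arterial-side capillary-like cells 4 were called with zones from markers. The shares of all genes called in these alternative zone fits are not given.

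Directions turned with no gene held out for Fos between arterial-side capillary-like and arterial-like cells (0.0164), Junb (-0.0929) and Ier2 (-0.0945) between the capillary zones and Egr1 between venous-like and arterial-side capillary-like cells (-0.0617). In the last contrast zones from markers gave Egr1 -0.0744 and Dusp1 -0.0606. With little endothelial RNA, Jun (0.90) and Dusp1 (0.45) turned between mural classes. Between diets Dusp1 in smooth muscle-like cells was -0.0703 after thinning, and with a library left out Ier2 ranged from -0.28 to 0.000777 and Dusp1 from -0.15 to 0.00191 in endothelial-like cells, and the median in smooth muscle-like cells from -0.17 to 0.0167. Of the other single values, 761 kept direction and side of the threshold between classes and 76 no longer passed; between diets 330 and 28 newly passed. The cause was not tested.

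On scaled totals 3, 4 and 3 of the 10 were lower without overlap in endothelial-like, arterial-side and venous-side capillary-like cells, against 20.2%, 19.9% and 18.4% of all genes. In smooth muscle-like cells 4 were lower and 2 higher on these totals, against 15.6% and 17.3% of all genes. Mean summed levels moved with at most 5% mitochondrial UMIs to 38885 CPM (endothelial-like, control), 29012 and 22286 CPM (pericyte-like, control and PLX5622) and 35115 CPM (smooth muscle-like, control). Thinning gave 36178 CPM in endothelial-like controls and 23655 and 17509 CPM in pericyte-like cells. There no gene held out gave 24148 and 15816 CPM and little endothelial RNA 13589 and 12677 CPM. Genes called between diets among all tested went from 0 to 2 in pericyte-like and in smooth muscle-like cells and from 41 to 27 in arterial-like cells with library totals, and from 97 higher and 37 lower to 104 and 74 in endothelial-like cells. With no gene held out, too few pericyte-like cells remained in control 1 for a diet test. Libraries, 2 per diet, and 32 to 97 pericyte-like cells each limit precision.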
